A study of Homo sapiens with 4 samples.

Results

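The genes described here make cholesterol and fatty acids, move sterols in and out of cells, and control both tasks. They are 50 genes, listed by symbol and found through their Ensembl identifiers among the 64252 rows of a gene count table, and a row was found for each of the 50. They fall into the SREBP system (5 genes), a sterol arm (27 genes, of which 18 are synthesis enzymes and 9 act in uptake, movement and efflux) and a fatty acid arm (18 genes). The counts came from RNA sequencing of SK-N-BE(2), an established line of human neuroblastoma with amplified MYCN. There were 2 libraries from cells transfected with a short hairpin RNA (shRNA) against IRF2BP2 and 2 libraries from cells transfected with a scramble shRNA. The comparison asked which transcripts differ when IRF2BP2 is lowered, a co-regulator of transcription that was found as a partner of IRF2. The time after transfection and the number of hairpins are not given in the labels, so an effect of the hairpin itself cannot be told apart from lower IRF2BP2. Whether the libraries of a group came from separate cultures is not said in the labels, and p-values therefore cover the spread between libraries only, which could be technical.

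Cells make cholesterol from acetyl-CoA through mevalonate, squalene and lanosterol. The transcription factors SREBP1 and SREBP2 (genes SREBF1 and SREBF2) wait in the membrane of the endoplasmic reticulum, bound to the escort protein SCAP. When sterols are scarce, SCAP carries them to the Golgi, where proteases release the active factor. When sterols are plentiful, the INSIG proteins hold SCAP back. SREBP2 acts mainly on sterol genes and SREBP1 mainly on fatty acid genes, and neuroblastoma cells, like other dividing cells, need both products for new membranes.

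Total counts lay between 30847699 and 34684651 per library. Levels are in CPM, a count as a share of all counts of its library, with TMM scaling between libraries. IRF2BP2 itself had 89.6 and 87.6 CPM with the IRF2BP2 shRNA, against 243 and 238 CPM with scramble, a log2 fold change of -1.44 (standard error 0.04, edgeR adjusted p = 5.87e-10). Of 19093 genes tested with edgeR, 42.0% were called at an adjusted p under 0.05, with 20.6% higher and 21.4% lower in IRF2BP2 shRNA cells, so a call by itself is common in this comparison. Both IRF2BP2 shRNA libraries lay above both scramble libraries for 34.4% of the genes tested, and below both for 36.0%. The median log2 fold change of all genes tested was -0.01. Summed over 7 neuroblastoma markers (MYCN, HAND2, GATA3, ISL1, TBX2, DBH and STMN2), all detected, the level was 8675 and 8796 CPM with the IRF2BP2 shRNA and 7854 and 8162 CPM with scramble. MYCN carried most of this sum, with 7075 and 7174 CPM with the IRF2BP2 shRNA and 5361 and 5517 CPM with scramble. Of the 7 markers, 2 rose (MYCN and TBX2), 4 fell (HAND2, ISL1, DBH and STMN2) and 1 was not called (median log2 fold change -0.40). DBH had 1.38 and 2.06 CPM with the IRF2BP2 shRNA, against 58.6 and 68.2 CPM with scramble, and STMN2 had 254 and 257 CPM with the IRF2BP2 shRNA, against 1002 and 1027 CPM with scramble. Over 4 fibroblast markers (COL1A1, COL1A2, DCN and LUM) the sum was 89.0 and 83.4 CPM with the IRF2BP2 shRNA and 123 and 120 CPM with scramble. LUM and DCN fell, COL1A1 rose by 2.17 on the log2 scale (edgeR adjusted p = 4.83e-08), and COL1A2 was too low to test. The summed markers of hepatocytes, Schwann cells, leukocytes, endothelial and epithelial cells reached at most 6.84 CPM in any library, and APOA2, SERPINA1, CD3E and PECAM1 had no counts. The part of these marker differences in the results below was not tested.

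The transcripts of the SREBP factors and their escort did not pass the test, while the 2 INSIG genes were called in opposite directions. SREBF2 had 400 and 412 CPM in IRF2BP2 shRNA libraries and 394 and 400 CPM in scramble libraries, and the groups overlapped. Its log2 fold change was 0.03, with a 95% interval of -0.05 to 0.12 (edgeR adjusted p = 0.542). SREBF1 had 59.9 and 55.9 CPM in IRF2BP2 shRNA libraries and 61.6 and 58.2 CPM in scramble libraries, again with overlap, and a log2 fold change of -0.05 (-0.18 to 0.09, edgeR adjusted p = 0.570). These values are transcript levels and do not measure cleavage of the SREBP proteins. SCAP had 67.8 and 72.0 CPM with the IRF2BP2 shRNA and 74.3 and 74.5 CPM with scramble, a log2 fold change of -0.09 (-0.20 to 0.02, edgeR adjusted p = 0.196). It was called lower when genes with a mean under 10 CPM were left out of the fit (-0.13, edgeR adjusted p = 0.0447).

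INSIG1, which retains SCAP and is itself a well-known SREBP target, rose to 115 and 114 CPM in IRF2BP2 shRNA cells, against 82.3 and 82.4 CPM in scramble cells. That is a log2 fold change of 0.48 (standard error 0.04, edgeR adjusted p = 2.82e-06), and the replicates of each group lay close together. INSIG2, its paralog with the same retention function, fell to 11.0 and 11.2 CPM in IRF2BP2 shRNA cells, against 19.5 and 19.9 CPM in scramble cells. Its log2 fold change was -0.82 (standard error 0.10, edgeR adjusted p = 6.53e-05). The ratio of INSIG1 to INSIG2 CPM, which is not per length and so is read only between groups, was 10.5 and 10.2 with the IRF2BP2 shRNA and 4.23 and 4.14 with scramble. In all, 1 of the 5 genes of the SREBP system was higher (20.0%), 1 was lower (20.0%) and 3 were not called. These shares are near the 20.6% higher and 21.4% lower over all genes tested.

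The promoter windows of SREBF2 and INSIG1 are printed to compare letters usually read as SREBP and NF-Y sites in the gene of a factor that was not called and in a known target of it that rose. NF-Y is a factor that binds CCAAT and is known to act beside SREBP at sterol genes. Each window runs from 250 bases before to 50 bases after the RefSeq start (GRCh38.p14), 5' to 3' on the gene's strand, and capitals mark the sterol response element TCACNCCAC and CCAAT on either strand.
SREBF2, chr22:41832855-41833154, plus strand: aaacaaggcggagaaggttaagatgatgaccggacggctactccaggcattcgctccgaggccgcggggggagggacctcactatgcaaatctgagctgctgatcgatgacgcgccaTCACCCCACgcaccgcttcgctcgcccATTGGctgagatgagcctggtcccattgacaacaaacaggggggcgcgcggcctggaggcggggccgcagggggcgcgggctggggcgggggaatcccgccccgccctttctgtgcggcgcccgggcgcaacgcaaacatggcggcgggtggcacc
INSIG1, chr7:155297628-155297927, plus strand: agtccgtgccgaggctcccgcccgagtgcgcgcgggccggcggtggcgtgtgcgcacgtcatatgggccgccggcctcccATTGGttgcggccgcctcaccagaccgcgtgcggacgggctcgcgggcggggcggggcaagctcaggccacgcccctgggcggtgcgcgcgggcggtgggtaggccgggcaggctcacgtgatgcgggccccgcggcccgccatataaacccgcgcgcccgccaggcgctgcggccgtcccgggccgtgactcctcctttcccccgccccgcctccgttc
The SREBF2 window held 1 sterol response element and 1 CCAAT match, and the INSIG1 window held 0 and 1.

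The enzymes of sterol synthesis were mostly higher in IRF2BP2 shRNA cells. Of the 18, 14 rose (77.8%), 2 fell (11.1%) and 2 were not called, where 20.6% of all genes tested were higher. All 18 had a mean of at least 10 CPM, and among the 10387 tested genes at that level 31.5% were higher and 25.8% lower. The median log2 fold change of the 18 was 0.37, against 0.04 over the tested genes of at least 10 CPM. Their summed level was 2184 and 2196 CPM in IRF2BP2 shRNA libraries and 1619 and 1628 CPM in scramble libraries. All 14 that rose had both IRF2BP2 shRNA libraries above both scramble libraries, and none of the 18 showed overlapping groups. Over all genes tested, 34.4% lay above in this way and 36.0% below.

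**Figure D1:**
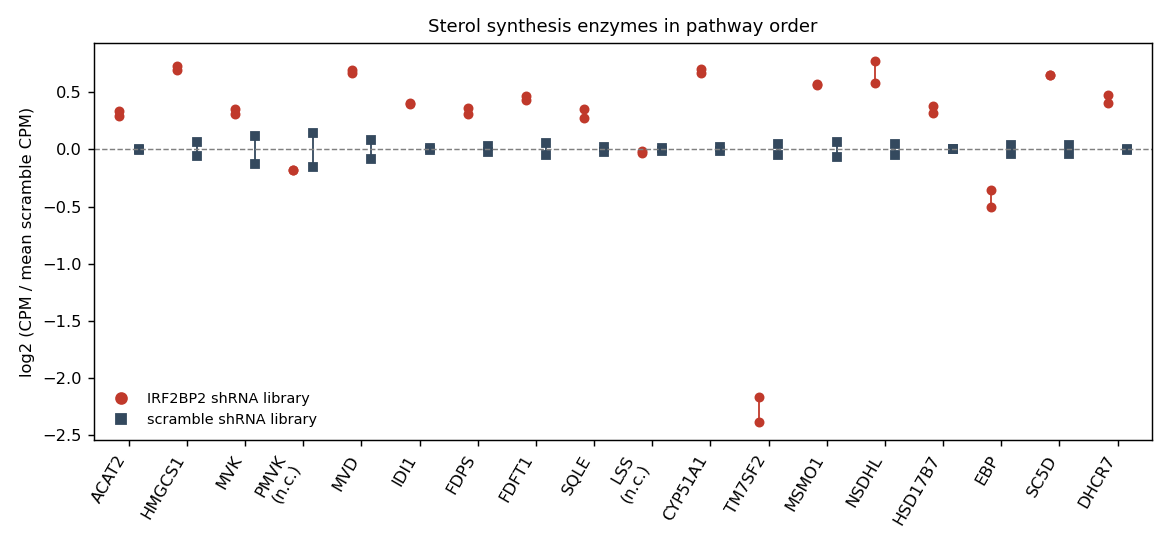
Level of each sterol synthesis enzyme in every library, in pathway order from left to right, as log2 of its CPM over the mean scramble CPM (n = 2 libraries per group). Circles are IRF2BP2 shRNA libraries, squares are scramble shRNA libraries, a line joins the libraries of a group, and n.c. marks the 2 genes that were not called. Most circles sit between 0.3 and 0.8 above the scramble mean, while EBP and TM7SF2 lie below it.

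The early steps turn acetyl-CoA into isoprenoid units, and 5 of these 6 genes rose, with a median log2 fold change of 0.37. Of all tested genes of at least 10 CPM, 31.5% were higher. HMGCS1, the cytosolic HMG-CoA synthase, had 350 and 340 CPM in IRF2BP2 shRNA cells, against 220 and 202 CPM in scramble cells. Its log2 fold change of 0.71 (standard error 0.05, edgeR adjusted p = 4.74e-07) was the highest of the 18 enzymes. MVD, which makes isopentenyl diphosphate, had 113 and 115 CPM in IRF2BP2 shRNA cells, against 67.4 and 75.3 CPM in scramble cells (log2 fold change 0.67, standard error 0.05, edgeR adjusted p = 2.39e-06). Smaller rises on the log2 scale were found for IDI1, the isomerase of isoprenoid units (0.40), MVK, mevalonate kinase (0.33), and ACAT2, the cytosolic thiolase (0.31). PMVK, phosphomevalonate kinase, had 35.9 and 36.0 CPM with the IRF2BP2 shRNA and 36.7 and 44.9 CPM with scramble (log2 fold change -0.18, 95% interval -0.39 to 0.03, edgeR adjusted p = 0.152). Without scramble replicate 1 it was called lower (-0.31, edgeR adjusted p = 0.00576).

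Of the 4 genes from isoprenoid units to lanosterol, 3 rose, where 31.5% of all tested genes of at least 10 CPM were higher. On the log2 scale the 3 were FDFT1, squalene synthase (0.44), FDPS, farnesyl diphosphate synthase (0.33), and SQLE, squalene epoxidase (0.31). FDFT1 had 336 and 345 CPM in IRF2BP2 shRNA libraries, against 241 and 259 CPM in scramble libraries. LSS, which folds squalene epoxide into lanosterol, had 44.7 and 44.2 CPM with the IRF2BP2 shRNA and 45.6 and 44.8 CPM with scramble, a log2 fold change of -0.02 (95% interval -0.17 to 0.12, edgeR adjusted p = 0.801). The ratio of HMGCS1 to LSS CPM was 7.85 and 7.69 with the IRF2BP2 shRNA and 4.83 and 4.51 with scramble.

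From lanosterol to cholesterol, 6 of 8 genes rose and 2 fell. CYP51A1, the lanosterol demethylase, had 137 and 134 CPM in IRF2BP2 shRNA cells, against 85.2 and 83.2 CPM in scramble cells (log2 fold change 0.69, standard error 0.04, edgeR adjusted p = 1.60e-07). The methyl groups at carbon 4 are removed by MSMO1, NSDHL and HSD17B7, and all 3 rose. MSMO1 had 119 and 120 CPM in IRF2BP2 shRNA cells, against 77.1 and 84.1 CPM in scramble cells, a log2 fold change of 0.57 (standard error 0.05, edgeR adjusted p = 2.91e-06). NSDHL had 34.5 and 39.4 CPM in IRF2BP2 shRNA cells, against 22.3 and 23.8 CPM in scramble cells, a log2 fold change of 0.68 (standard error 0.09, edgeR adjusted p = 8.55e-05). SC5D, sterol-C5-desaturase, had 107 CPM in each IRF2BP2 shRNA library, against 70.0 and 66.3 CPM in scramble libraries (log2 fold change 0.65, standard error 0.05, edgeR adjusted p = 6.81e-07). DHCR7, which makes cholesterol by reducing 7-dehydrocholesterol, rose by 0.44 on the log2 scale. HSD17B7 rose by 0.35 on the log2 scale (edgeR adjusted p = 0.0221) and no longer passed without either IRF2BP2 shRNA library (edgeR adjusted p = 0.113 and 0.0669) or scramble replicate 2 (0.0541). Separate rows named as pseudogenes of HSD17B7 had counts equal to 9.50% of those in its own row. For FDPS and CYP51A1 this ratio was at most 0.607%.

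TM7SF2 and EBP were the 2 genes of the branch that fell. TM7SF2 encodes a C14 sterol reductase that acts on the product of CYP51A1, and it lies on chromosome 11 from 65111845 to 65116384 on the plus strand (GRCh38). It had 3.72 and 3.19 CPM in IRF2BP2 shRNA libraries, against 17.2 and 16.1 CPM in scramble libraries. That is a level 4.82-fold lower with the IRF2BP2 shRNA (log2 fold change -2.27, standard error 0.15, edgeR adjusted p = 3.67e-07). The counts behind it were 119 and 102 with the IRF2BP2 shRNA and 596 and 495 with scramble. TM7SF2 shares 16 exon bases with VPS51 on the same strand, which was lower by a smaller amount (-0.21 on the log2 scale, edgeR adjusted p = 0.0380). LBR, the nuclear membrane protein that is the other C14 reductase of human cells, is no member and was looked up after the values of TM7SF2 were seen. It had 183 and 185 CPM in IRF2BP2 shRNA cells, against 249 and 243 CPM in scramble cells (log2 fold change -0.42, standard error 0.04, edgeR adjusted p = 6.04e-06), so both genes of this step fell. EBP, the sterol isomerase that shifts a double bond of the ring, had 35.1 and 38.8 CPM in IRF2BP2 shRNA cells and 51.2 and 48.3 CPM in scramble cells (log2 fold change -0.43, edgeR adjusted p = 0.000756).

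The windows of HMGCS1 and MVD, among the sterol enzymes with the highest log2 fold changes, and of TM7SF2, with the lowest, are set side by side to compare their letters. Capitals mark the same motifs as above.
HMGCS1, chr5:43313363-43313662, minus strand: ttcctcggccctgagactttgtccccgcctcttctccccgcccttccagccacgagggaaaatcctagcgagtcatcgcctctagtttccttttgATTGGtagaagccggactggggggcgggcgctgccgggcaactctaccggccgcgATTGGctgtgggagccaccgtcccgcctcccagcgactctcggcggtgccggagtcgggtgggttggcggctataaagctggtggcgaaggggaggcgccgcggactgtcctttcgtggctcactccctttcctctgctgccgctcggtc
MVD, chr16:88663042-88663341, minus strand: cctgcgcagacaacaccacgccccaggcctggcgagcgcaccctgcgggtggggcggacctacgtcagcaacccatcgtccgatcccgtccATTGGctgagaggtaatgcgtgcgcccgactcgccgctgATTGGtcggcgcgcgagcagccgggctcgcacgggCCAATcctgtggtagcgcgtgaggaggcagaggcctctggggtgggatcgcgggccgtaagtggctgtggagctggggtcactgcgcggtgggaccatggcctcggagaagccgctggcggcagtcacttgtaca
TM7SF2, chr11:65111622-65111921, plus strand: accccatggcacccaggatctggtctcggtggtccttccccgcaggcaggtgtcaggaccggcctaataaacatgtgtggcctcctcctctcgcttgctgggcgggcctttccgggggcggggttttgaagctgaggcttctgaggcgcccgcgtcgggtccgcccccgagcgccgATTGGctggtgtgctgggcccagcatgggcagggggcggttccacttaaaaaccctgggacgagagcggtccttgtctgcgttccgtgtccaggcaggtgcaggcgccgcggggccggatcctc
The CCAAT letters occurred 2 times in the HMGCS1 window, 3 times in that of MVD and 1 time in that of TM7SF2, and none of these windows held TCACNCCAC. Windows not printed did not follow this order. That of CYP51A1 (log2 fold change 0.69) held 0 CCAAT matches, that of NSDHL (0.68) held 5 and that of EBP (-0.43) held 3.

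A window was found for 46 of the 50 members, and ACAT2, FDFT1, SQLE and FASN had none in the table. CCAAT was present in 13 of 15 sterol synthesis genes (86.7%), in 12 of 17 fatty acid genes (70.6%) and in 4 of 9 sterol transport genes (44.4%). Among the sterol synthesis genes, it was present in 10 of 11 that rose and in 3 of 4 that fell or were not called. These 4 mix fallen and uncalled genes and are too few to compare directions. The share was 42.4% of the 12019 tested genes with a window, 44.5% of the 8050 of these with at least 10 CPM, and 34.6% of all 35116 windows. TCACNCCAC was present in 1 of 46 members, SREBF2, and in 1.13% of all windows. The GC box GGGCGG was present in 44 of 46 members and 75.1% of tested genes, and the E-box CACGTG in 7 of 46 members and 12.5% of tested genes. Both strands were searched, a gene with several windows was counted once, and 1 pair of different motifs shared a base in the members' windows. A match is a description of letters and not a measured site. Only the exact letters in these windows were searched, so a missing match does not mean that a gene lacks a site.

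**Figure D2:**
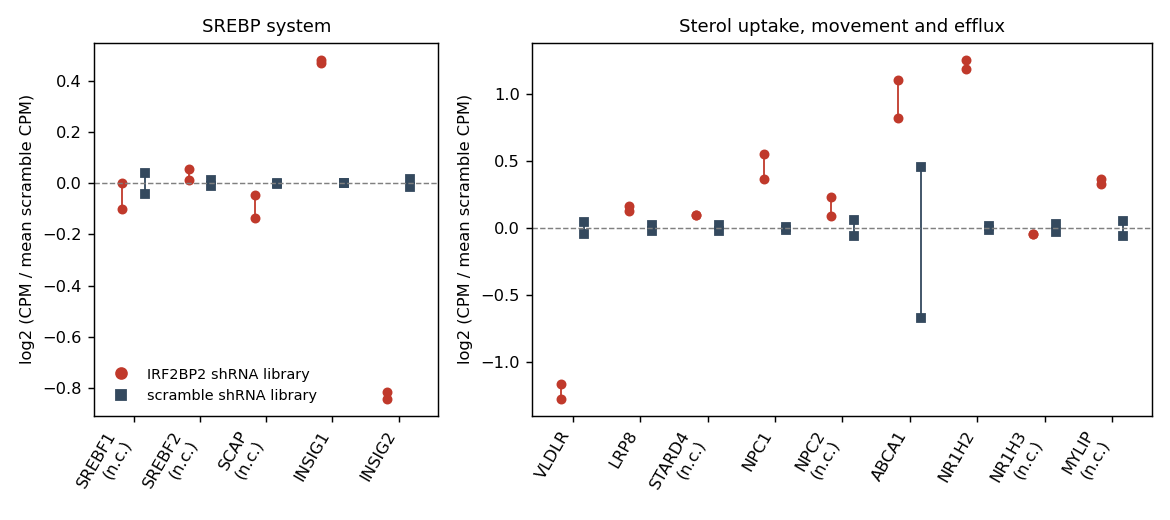
Levels of the 5 SREBP system genes (left) and the 9 genes of sterol uptake, movement and efflux (right) in every library, as log2 of CPM over the mean scramble CPM (n = 2 libraries per group). Circles are IRF2BP2 shRNA libraries and squares are scramble shRNA libraries, n.c. marks genes not called, and the panels have different vertical scales. INSIG1 and INSIG2 lie on opposite sides of 0, as do NR1H2 and VLDLR, and the scramble libraries of ABCA1 lie far apart.

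Among the 9 genes of sterol uptake, movement and efflux, 4 rose (44.4%), 1 fell (11.1%) and 4 missed the threshold, where 20.6% of all genes tested were higher and 21.4% lower. Their median log2 fold change was 0.16. Their summed level was 285 and 291 CPM in IRF2BP2 shRNA libraries and 280 and 281 CPM in scramble libraries. VLDLR, a lipoprotein receptor that in neurons also binds reelin, was the gene that fell. It had 24.3 and 26.3 CPM in IRF2BP2 shRNA cells, against 57.1 and 60.7 CPM in scramble cells, a log2 fold change of -1.22 (standard error 0.07, edgeR adjusted p = 2.28e-07). VLDLR-AS1 overlaps it on the opposite strand, with a mean count equal to 5.10% of that of VLDLR, and also fell (-2.29, edgeR adjusted p = 0.000155). LRP8, the other reelin receptor, had 74.7 and 72.7 CPM in IRF2BP2 shRNA cells, against 65.5 and 67.7 CPM in scramble cells (log2 fold change 0.15, edgeR adjusted p = 0.0384). LRP8 no longer passed when IRF2BP2 shRNA replicate 1 (edgeR adjusted p = 0.179) or 2 (0.0706) or scramble replicate 1 (0.112) was left out.

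NR1H2, the sterol-sensing nuclear receptor LXR beta, had the largest rise of the 49 members tested. It had 27.7 and 29.1 CPM in IRF2BP2 shRNA cells, against 12.0 and 12.3 CPM in scramble cells (log2 fold change 1.22, standard error 0.09, edgeR adjusted p = 9.97e-07). NR1H3, the related receptor LXR alpha, had 10.1 CPM in each IRF2BP2 shRNA library and 10.6 and 10.2 CPM in scramble libraries (-0.04, 95% interval -0.33 to 0.24, edgeR adjusted p = 0.815). LXR receptors are known to drive the efflux pump ABCA1 and MYLIP, a ubiquitin ligase that removes lipoprotein receptors. ABCA1 was low, with 2.57 and 3.12 CPM in IRF2BP2 shRNA libraries and 1.99 and 0.912 CPM in scramble libraries. Its log2 fold change of 0.96 sat at the threshold (edgeR adjusted p = 0.0497). It no longer passed when IRF2BP2 shRNA replicate 1, IRF2BP2 shRNA replicate 2 or scramble replicate 2 was left out (edgeR adjusted p = 0.0796, 0.208 and 0.231). The log2 fold change was 0.52 without scramble replicate 2 and 1.65 without scramble replicate 1. MYLIP had 6.51 and 6.34 CPM with the IRF2BP2 shRNA and 5.25 and 4.85 CPM with scramble (0.35, 95% interval -0.03 to 0.72, edgeR adjusted p = 0.129). ABCG1 and ABCG4, lowly counted sterol transporter genes outside the members, fell. Their log2 fold changes were -1.49 (edgeR adjusted p = 0.00264) and -1.48 (edgeR adjusted p = 0.00530). Both were picked after their values were seen.

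NPC1, which lets cholesterol leave lysosomes, had 24.7 and 28.1 CPM in IRF2BP2 shRNA cells, against 19.0 and 19.3 CPM in scramble cells (log2 fold change 0.46, standard error 0.09, edgeR adjusted p = 0.00174). NPC2, which hands cholesterol to NPC1, had 3.47 and 3.84 CPM with the IRF2BP2 shRNA and 3.40 and 3.13 CPM with scramble (0.16, 95% interval -0.31 to 0.64, edgeR adjusted p = 0.589). STARD4, a cytosolic sterol carrier, had 111 CPM in each IRF2BP2 shRNA library, against 105 and 102 CPM in scramble libraries, and missed the threshold (0.11, edgeR adjusted p = 0.0557). Over the whole sterol arm of 27 genes, 18 rose (66.7%), 3 fell (11.1%) and 6 missed the threshold (median log2 fold change 0.35). Among all genes tested, 20.6% were higher and 21.4% lower. Tested against a change of 1.5-fold, HMGCS1, CYP51A1 and NR1H2 were higher and TM7SF2 and VLDLR lower, where 2.85% of all genes tested were higher and 5.63% lower by that test.

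Of the 18 genes of the fatty acid arm, 17 were tested, and 9 rose (52.9%), 6 fell (35.3%) and 2 missed the threshold. The median log2 fold change was 0.15. Among its 16 genes with a mean of at least 10 CPM, 9 rose (56.2%) and 5 fell (31.2%), where 31.5% of all tested genes at that level were higher and 25.8% lower. The summed level of the arm was 4594 and 4667 CPM in IRF2BP2 shRNA libraries and 4447 and 4456 CPM in scramble libraries. None of the 17 was higher when tested against 1.5-fold, and SCD5 was lower.

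**Figure D3:**
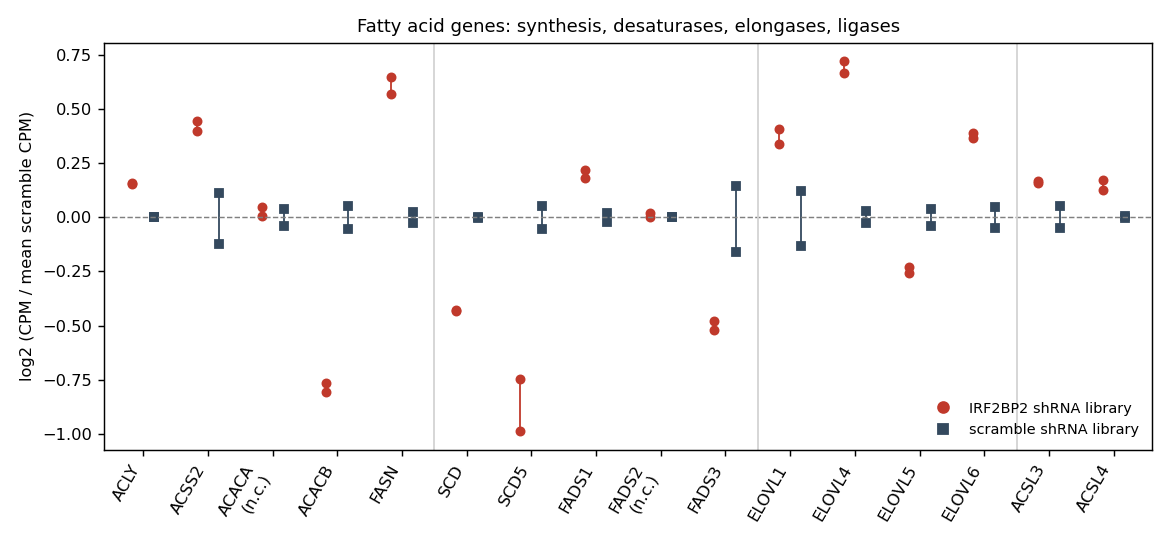
Levels of 16 fatty acid genes in every library, as log2 of CPM over the mean scramble CPM (n = 2 libraries per group), with vertical lines between synthesis, desaturase, elongase and ligase genes. Circles are IRF2BP2 shRNA libraries, squares are scramble shRNA libraries, and n.c. marks genes not called. ELOVL2 and ELOVL7 are left out because of their few counts. FASN lies above the scramble mean while SCD and SCD5 lie below it.

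Synthesis of the chain starts from citrate and acetate. ACLY, which splits citrate into acetyl-CoA, had 690 and 692 CPM in IRF2BP2 shRNA cells, against 621 CPM in each scramble library, a log2 fold change of 0.15 (standard error 0.03, edgeR adjusted p = 0.00370). ACSS2, which makes acetyl-CoA from acetate, had 29.7 and 30.7 CPM in IRF2BP2 shRNA cells, against 24.4 and 20.7 CPM in scramble cells (0.42, edgeR adjusted p = 0.00352). ACACA, the acetyl-CoA carboxylase of chain synthesis, had 133 and 137 CPM with the IRF2BP2 shRNA and 129 and 136 CPM with scramble, with overlap (0.02, 95% interval -0.07 to 0.11, edgeR adjusted p = 0.697). ACACB, the carboxylase at mitochondria whose product restrains fatty acid oxidation, had 13.0 and 13.4 CPM in IRF2BP2 shRNA cells, against 21.9 and 23.6 CPM in scramble cells (log2 fold change -0.79, standard error 0.10, edgeR adjusted p = 5.71e-05). FASN, the synthase that builds palmitate, had 1145 and 1211 CPM in IRF2BP2 shRNA cells, against 760 and 786 CPM in scramble cells. Its log2 fold change was 0.61 (standard error 0.04, edgeR adjusted p = 2.97e-07), and the groups lay far apart relative to their spread.

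The desaturases, which place double bonds in fatty acids, had 1 gene higher, 3 lower and 1 not called. Over all genes tested, 20.6% were higher and 21.4% lower, and 5 genes are too few to read a direction of the family. SCD, the main desaturase of stearate and palmitate, had 1051 and 1055 CPM in IRF2BP2 shRNA cells, against 1421 and 1416 CPM in scramble cells. Its log2 fold change was -0.43 (standard error 0.03, edgeR adjusted p = 9.83e-07). SCD5, another stearoyl-CoA desaturase known from brain, had 14.2 and 12.0 CPM in IRF2BP2 shRNA cells, against 24.7 and 22.9 CPM in scramble cells (log2 fold change -0.86, standard error 0.11, edgeR adjusted p = 6.68e-05). The ratio of FASN to SCD CPM was 1.09 and 1.15 with the IRF2BP2 shRNA and 0.535 and 0.555 with scramble, and that of FASN to ACACA was 8.60 and 8.86 with the IRF2BP2 shRNA and 5.89 and 5.76 with scramble. FADS1 and FADS2, the desaturases of polyunsaturated chains, lie on opposite strands and share 490 exon bases. FADS1 had 421 and 411 CPM in IRF2BP2 shRNA cells, against 357 and 368 CPM in scramble cells (0.20, edgeR adjusted p = 0.00153), and FADS2 had 494 and 500 CPM in IRF2BP2 shRNA cells, against 493 CPM in each scramble library (0.01, edgeR adjusted p = 0.850). FADS3 had 9.67 and 9.94 CPM in IRF2BP2 shRNA cells, against 15.3 and 12.4 CPM in scramble cells (-0.50, edgeR adjusted p = 0.0114), and was not called without scramble replicate 1 (-0.33, edgeR adjusted p = 0.119).

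The SCD window is shown because SCD is a known SREBP1 target that fell while FASN rose. It lies on the plus strand, and capitals mark CCAAT.
SCD, chr10:100346983-100347282, plus strand: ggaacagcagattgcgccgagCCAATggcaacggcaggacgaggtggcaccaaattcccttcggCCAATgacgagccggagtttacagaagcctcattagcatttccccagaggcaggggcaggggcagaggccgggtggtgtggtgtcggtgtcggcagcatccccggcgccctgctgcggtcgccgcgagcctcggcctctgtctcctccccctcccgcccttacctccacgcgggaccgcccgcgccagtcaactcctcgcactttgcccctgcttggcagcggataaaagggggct
It held 2 CCAAT matches and no TCACNCCAC match, the same numbers as in the HMGCS1 window, whose gene rose.

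The elongases, which lengthen fatty acid chains, numbered 3 higher, 2 lower and 1 not tested. With 20.6% of all genes tested higher and 21.4% lower, the 5 tested elongases are likewise too few to read a direction of the family. ELOVL6, which lengthens palmitate, had 128 and 126 CPM in IRF2BP2 shRNA cells, against 101 and 94.3 CPM in scramble cells (log2 fold change 0.38, standard error 0.04, edgeR adjusted p = 3.02e-05). ELOVL4, which makes very long chains, had 21.5 and 20.7 CPM in IRF2BP2 shRNA cells, against 12.8 and 13.3 CPM in scramble cells (log2 fold change 0.70, standard error 0.10, edgeR adjusted p = 0.000157). ELOVL1, which lengthens saturated chains, rose by 0.37 on the log2 scale (edgeR adjusted p = 0.00675). ELOVL5, which lengthens polyunsaturated chains, had 209 and 213 CPM in IRF2BP2 shRNA cells, against 257 and 243 CPM in scramble cells (-0.25, edgeR adjusted p = 0.000633). ELOVL7 had 2 counts over both IRF2BP2 shRNA libraries and 27 over both scramble libraries, a ratio of 0.0759 (exact 95% interval 0.00875 to 0.302, counting error only). It was called lower (edgeR adjusted p = 0.0120) but not without IRF2BP2 shRNA replicate 2 (0.108) or scramble replicate 2 (0.0533). ELOVL2 had 2 and 0 counts with the IRF2BP2 shRNA and 2 and 2 counts with scramble and was not tested. The acyl-CoA ligases, which activate fatty acids for use, had 128 and 127 CPM (ACSL3) and 69.3 and 71.7 CPM (ACSL4) in IRF2BP2 shRNA cells, against 118 and 110 CPM (ACSL3) and 63.7 and 63.4 CPM (ACSL4) in scramble cells. Both were called higher, with log2 fold changes of 0.16 (edgeR adjusted p = 0.00966) and 0.15 (edgeR adjusted p = 0.0371). The ACSL4 call was lost in every fit that left out 1 library (edgeR adjusted p of 0.0570 to 0.175), and that of ACSL3 without IRF2BP2 shRNA replicate 1 (0.0569) or scramble replicate 2 (0.0692).

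**Figure D4:**
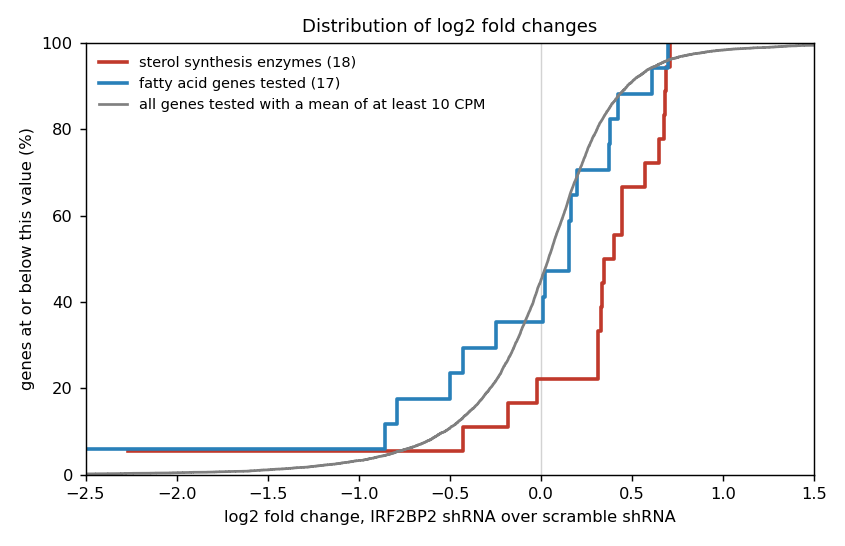
Cumulative share of genes (%) by log2 fold change, IRF2BP2 shRNA over scramble shRNA, for 18 sterol synthesis enzymes, 17 fatty acid genes tested, and all genes tested with a mean of at least 10 CPM. ELOVL7 (-3.56) lies beyond the left end of the axis, so the fatty acid line starts above 0. The sterol line runs to the right of the others, with a median of 0.37, and the fatty acid line extends past the background line on the low side.

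Compared per kilobase of exon, which allows levels to be set between genes, fatty acid genes held the top of the order. SCD had 196 CPM per kilobase in IRF2BP2 shRNA cells and 265 in scramble cells. ACLY had 132 in IRF2BP2 shRNA cells and 119 in scramble cells, and FASN had 126 in IRF2BP2 shRNA cells and 82.5 in scramble cells. These 3 led the order in both groups. With the longest annotated transcript as the length, they led in IRF2BP2 shRNA cells only. In scramble cells, FASN (90.2) then lay below FADS2 (97.3) and FDFT1 (94.1). Per kilobase of exon, HMGCS1 came next in IRF2BP2 shRNA cells, with 73.5 CPM per kilobase, against 44.9 in scramble cells, where it ranked 7. With the longest transcript, HMGCS1 (98.5) lay below FDFT1 (128) and FDPS (102) in IRF2BP2 shRNA cells. TM7SF2 had 1.01 CPM per kilobase in IRF2BP2 shRNA cells and 4.89 in scramble cells. The 50 members together held 0.774% and 0.780% of all counts in IRF2BP2 shRNA libraries and 0.698% and 0.697% in scramble libraries. In bulk RNA, fewer cells of a type and less RNA per cell cannot be told apart.

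**Figure D5:**
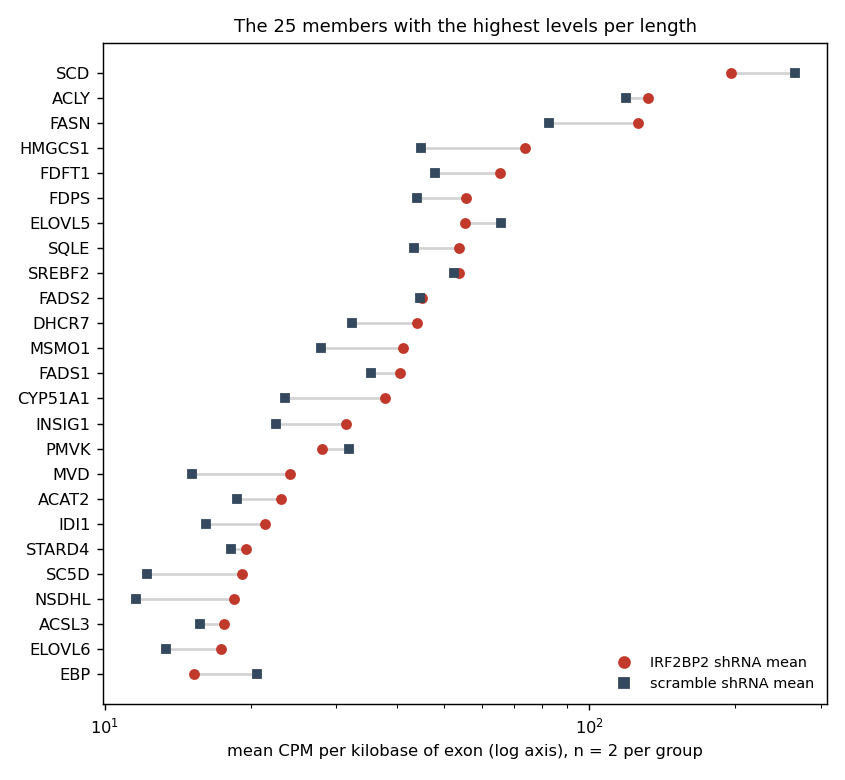
Mean level in CPM per kilobase of exon (log axis, n = 2 libraries per group) of the 25 members with the highest level in IRF2BP2 shRNA cells. Circles are IRF2BP2 shRNA means, squares are scramble shRNA means, and a line joins the 2 values of a gene. SCD, ACLY and FASN lead in both groups, with SCD at 196 in IRF2BP2 shRNA cells and 265 in scramble cells.

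Several members share exon bases with a gene on the other strand, and the library kit does not mark strand, so reads there cannot be assigned. The partner had a mean count above that of the member for SREBF1 (RAI1), ACAT2 (TCP1), MVK (MMAB), NPC2 (ISCA2), NR1H3 (ACP2) and FADS1 (FADS2). For ACAT2, the TCP1 count was 508% of its own and TCP1 rose by 0.20 on the log2 scale, against 0.31 for ACAT2. The partners of NPC1 (RMC1, 52.5%) and STARD4 (STARD4-AS1, 30.7%) were also sizeable, and neither partner was called. For SREBF2, HMGCS1, CYP51A1, IDI1, FDPS, FDFT1 and LSS, partners on the opposite strand had at most 4.09% of the member's mean count. CYP51A1 also shares 2844 exon bases, 79.4% of its own, with ENSG00000285772 on the same strand. ACAT2 shares 26.5% of its exon bases with SOD2 and 33.9% with SOD2-OT1, both on the opposite strand. These 3 partners have no row under their annotated identifiers in the count table, so their counts could not be compared. FASN and SCD shared no exon bases with another gene of the table.

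Further genes of these pathways were called in both directions. Of 27 tested genes of sterol sensing, esterification and side branches, 8 rose (29.6%), 10 fell (37.0%) and 9 missed the threshold (median log2 fold change -0.07), where 20.6% of all genes tested were higher and 21.4% lower. SCARB1, a receptor for high-density lipoprotein, had 184 and 194 CPM in IRF2BP2 shRNA cells, against 120 and 115 CPM in scramble cells (0.69, edgeR adjusted p = 2.35e-07). DHDDS, which makes dolichol from isoprenoid units, had 42.5 and 44.1 CPM in IRF2BP2 shRNA cells, against 21.8 and 23.7 CPM in scramble cells (0.93, edgeR adjusted p = 2.82e-06). SOAT1, which stores cholesterol as esters, had 62.3 and 63.0 CPM in IRF2BP2 shRNA cells, against 37.4 and 38.6 CPM in scramble cells (0.72, edgeR adjusted p = 3.30e-06). The 2 Golgi proteases that release SREBP and the protein SPRING1, which SREBP processing needs, all fell on the log2 scale: MBTPS1 by 0.32, MBTPS2 by 0.61 and SPRING1 by 0.32. These 3 were picked after their values were seen. Of 25 tested genes of fatty acid supply, transport and storage, 5 rose, 5 fell and 15 were not called (median -0.06), and the 40.0% called is near the 42.0% over all genes. The called genes with the smallest p were CYB5R3, an electron donor for desaturation (0.61), CBR4, of mitochondrial fatty acid synthesis (-0.82), and DGAT2, which makes triglycerides (-0.91). Of 17 tested genes of fatty acid oxidation, 5 rose, 2 fell and 10 were not called (median 0.06), and the 41.2% called is likewise near the 42.0% over all genes. CPT1A, the carnitine transferase that admits long chains to mitochondria, had 124 and 120 CPM in IRF2BP2 shRNA cells, against 71.1 and 69.2 CPM in scramble cells (0.80, edgeR adjusted p = 8.11e-08). ACADVL, which oxidises very long chains (0.59), and the nuclear receptor PPARD (0.43) also rose on the log2 scale. The 2 that fell were PPARA (-0.67, edgeR adjusted p = 0.000418) and CPT2 (-0.34, edgeR adjusted p = 0.00764).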

How the data were processed

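The authors deposited raw counts per gene for each of the 4 libraries. Per the submitters' processing notes, the aligner was HISAT2 2.2.0 and the build hg38; for the counter and its annotation, no source used here gives a name. Per the labels' protocols, TRIzol RNA went into the TruSeq RNA kit. Control columns are headed NC, an abbreviation without explanation in the labels, and were taken as scramble shRNA.

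Genes passing filterByExpr by group (minimum count 10, minimum total 15) entered the robust, two-sided quasi-likelihood F-test of edgeR 4.0.16 (R 4.3.3) after TMM scaling (trimmed mean of M values). Benjamini-Hochberg adjustment ran over all 19093 genes, and called means an adjusted p under 0.05. Fold changes have IRF2BP2 shRNA on top, and standard errors were taken as |log2 fold change| over the root of F. The scripts were tested on simulated data. Exon lengths, overlaps and positions came from GENCODE on GRCh38, and promoter windows from RefSeq.

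The members and lists were chosen with earlier results of these data known. Values in every library are given for IRF2BP2, the SREBP system, and, in each subgroup, called members with an absolute log2 fold change of at least 0.5 or the 3 with the smallest p, with some further members. From each further list the 3 called genes with the smallest p are named, with some others picked after their values were seen. Alternatives were other scalings, filters and tests (limma 3.58.1 voom, DESeq2 1.42.0), a test against 1.5-fold, a replicate block, and leaving out each library. Chi-square per degree of freedom was 5.26 between the IRF2BP2 shRNA libraries and 7.01 between the scramble libraries, so no library was a copy of another.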

Additional observations from a re-analysis of the deposited data

How the results depend on the processing

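No direction of a called member reversed under any alternative run, and IRF2BP2 stayed lower, with log2 fold changes of -1.49 to -1.42. Over scalings, filters, DESeq2, limma voom and the fit without robust estimation, the sterol arm had 15 to 19 genes higher and 3 lower, and the fatty acid arm 7 to 9 higher and 5 or 6 lower. With only genes of a mean of at least 10 CPM tested, 2 SREBP system genes were lower in place of 1, because SCAP was called. Tested against a change of 1.5-fold, a stricter question, 3 sterol genes were higher and 2 lower, and 0 fatty acid genes were higher and 1 lower. ABCA1 lost its call under every alternative run except DESeq2 size factors and the fit without scramble replicate 1 (adjusted p from edgeR, DESeq2 or limma up to 0.231). LRP8, HSD17B7, ACSL3 and ACSL4 lost theirs under some, and STARD4 gained one under DESeq2 size factors (edgeR adjusted p = 0.0435) and without scramble replicate 1 (0.0294), and the causes were not tested. DESeq2 gave no adjusted p for ELOVL7. Without 1 library, sterol genes numbered 15 to 18 higher and 3 to 4 lower, fatty acid genes 7 to 8 higher and 4 to 6 lower, and all genes 3121 to 3855 higher and 3291 to 3623 lower. In these fits the lone library of a group is assumed to vary like the other group.

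The labels do not say that replicate numbers pair the libraries. Deviations of same-numbered libraries from their group mean correlated at 0.22. With 2 libraries a group, both pairs give this same value by construction, so it is a single value. With a replicate block, 3950 genes were higher and 3950 lower over all genes, 18 sterol genes were higher and 3 lower, and 9 fatty acid genes were higher and 6 lower. Among members, the block changed the calls of STARD4 (edgeR adjusted p = 0.0421) and ABCA1 (0.0565). With 2 libraries a group, small differences of lowly counted members such as NPC2, MYLIP and ELOVL7 were not detectable or rested on few counts.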
